A study of Mus musculus with 14 samples.

Results

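Cholesterol synthesis was followed through 8 genes of the pathway and its regulator in the kidneys of mice injected with a protein cage. The members, taken by gene symbol from the count table, were Hmgcs1, Idi1, Fdps, Sqle, Lss and Cyp51, which encode enzymes of the pathway, and Srebf2 and Insig1, which encode the transcription factor that drives it and a brake on that factor. All 8 were found among the 24421 genes of the table, and all 8 passed the filter on low counts that kept 14854 genes for testing. Whole kidneys of male C57BL/6J mice were profiled by sequencing of messenger RNA in 14 libraries. The 3 controls had received vehicle, and no time after the injection is given for them. The other libraries came from kidneys taken 4 h after Dps (3 libraries), 4 h after MnDps (3), 24 h after Dps (3) and 24 h after MnDps (2), each given into a vein at 18 mg/kg. The series presents these proteins as nanocages meant to reach the proximal tubule through the glomerular filter, and the labels spell out neither short name. They name no mutation or transgene, give no ages, and do not state that each library came from its own animal, so p-values measure the spread between libraries, which may be technical.

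Cells build cholesterol from acetyl-CoA. Hmgcs1 joins acetyl groups into HMG-CoA, from which mevalonate is made, Idi1 interconverts the isoprene units made from it, and Fdps assembles them into farnesyl diphosphate. From there the sterol arm begins: Sqle oxidises squalene, Lss closes the ring to give lanosterol, and Cyp51 removes a methyl group from it. SREBP2, the product of Srebf2, is held in the endoplasmic reticulum by Scap and Insig proteins when sterols are plentiful, and when sterols fall it travels to the Golgi, is cut free by the proteases of Mbtps1 and Mbtps2 and switches on the genes of both arms and Insig1. The cut is made in the protein, so transcript levels do not measure it directly.

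Promoter sequence is shown for 3 members because they stand for different places in this circuit: an enzyme at the head of the pathway, the brake and the factor itself. The letters are those of the RefSeq windows on GRCm38.p6, cut to the bases that lie before the transcription start of both RefSeq and GENCODE vM21, read 5′ to 3′ on the plus strand, which is the coding strand of all 3. The Hmgcs1 stretch is chr13:119690101-119690350, that of Insig1 chr5:28071162-28071362 and that of Srebf2 chr15:82147019-82147180. Capitals mark the sterol regulatory element consensus TCACNCCAC and the NF-Y box CCAAT on either strand, the second of which reads ATTGG when it lies on the minus strand.
Hmgcs1: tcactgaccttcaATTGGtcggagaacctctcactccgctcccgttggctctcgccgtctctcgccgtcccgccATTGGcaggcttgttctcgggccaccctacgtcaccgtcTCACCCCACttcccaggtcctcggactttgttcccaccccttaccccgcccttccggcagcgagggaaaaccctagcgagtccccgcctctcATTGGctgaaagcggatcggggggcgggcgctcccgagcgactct
Insig1: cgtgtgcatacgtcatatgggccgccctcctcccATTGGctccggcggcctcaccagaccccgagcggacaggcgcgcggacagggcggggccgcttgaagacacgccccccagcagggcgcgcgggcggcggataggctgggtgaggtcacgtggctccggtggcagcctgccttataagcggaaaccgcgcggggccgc
Srebf2: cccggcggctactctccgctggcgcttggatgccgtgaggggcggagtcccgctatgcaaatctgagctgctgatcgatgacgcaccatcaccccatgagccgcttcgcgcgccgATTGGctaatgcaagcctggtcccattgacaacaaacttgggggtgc

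The RefSeq table held windows for 6 of the 8 members, Hmgcs1, Idi1, Lss, Cyp51, Insig1 and Srebf2. Both strands of the 250 bases before each start were searched for 4 motifs, and the shares refer to the 32817 windows of the same length in the table. TCACNCCAC occurred in 1 of the 6, Hmgcs1, between 137 and 129 bases before the start, and in 1.05% of all windows. The NF-Y box CCAAT occurred in all 6 and in 33.83% of all windows, and the GC box GGGCGG in all 6 and in 32.72%. The E-box CACGTG occurred in 1 member, Insig1, between 101 and 96 bases before its start, and in 6.02% of all windows. No matches of different motifs overlapped in these 6 windows. A match describes letters and is not a measured binding site.

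Library totals ran from 15097093 to 42074942 counts, and 3 libraries exceeded 30000000 counts, namely control replicate 3 and the Dps replicates 1 and 2 taken at 4 h. Levels are CPM, counts rescaled to a common library size after TMM scaling, and a gene is said to have risen or fallen where edgeR's quasi-likelihood test gave a Benjamini-Hochberg adjusted p under 0.05 over the genes tested in a comparison. Replicate 3 of MnDps at 4 h stood apart on the second principal component, which held 20.6% of the variance, at 40.3, farther out than any other library. None of the 15 markers of the proximal tubule was at 0 in any group, and their sum, 49478 to 74561 CPM over the libraries, was mostly Kap (31996 to 58441 CPM). This sum was 57223 to 59950 CPM in controls, 49478 to 55242 after Dps and 61602 to 74561 after MnDps at 4 h. At 24 h it was 55907 to 69809 after Dps and 51633 to 59572 after MnDps. At 4 h after MnDps 10 of the 15 fell and 1 rose, with a median log2 difference of -0.38, where 22.7% of all genes fell and 22.9% rose. The counts of falls were 4 at 4 h (6.27% of all genes) and 3 at 24 h (10.4%) after Dps and 1 at 24 h after MnDps (8.39%). Of 10 adipocyte markers, none was at 0 in any group, and their sum lay at 50.7 to 121 CPM in controls, 227 to 287 after Dps and 151 to 284 after MnDps at 4 h, and 137 to 255 and 67.3 to 196 at 24 h. The sum of 12 macrophage and monocyte markers was 134 to 167 CPM in controls, 124 to 138 and 125 to 135 CPM at 4 h after Dps and MnDps, and 206 to 227 and 217 to 219 CPM at 24 h. These markers moved both ways at 4 h, with 3 called higher and 3 lower after Dps (8.33% and 6.27% of all genes). After MnDps 4 were called higher and 5 lower at that time (22.9% and 22.7%). By 24 h 8 were higher after Dps (9.64%) and 7 after MnDps (4.93%), and 0 were lower (10.4% and 8.39%). The sum of 11 endothelial markers was 543 to 632 CPM in controls, 337 to 447 and 320 to 397 CPM at 4 h, and 616 to 712 and 685 to 749 CPM at 24 h. The 7 neutrophil markers summed to 0.745 to 1.54 CPM in controls, 5.10 to 7.44 after Dps and 10.7 to 18.96 after MnDps at 4 h, and 1.49 to 2.63 and 1.45 to 1.597 CPM at 24 h. Of 10 adrenal cortex markers, 6 to 8 were detected in a group and 2, Cyp11b1 and Cyp11b2, were at 0 in every library. Their sum ran from 76.5 to 111 CPM, nearly all of it Fdx1 (72.8 to 107 CPM). Of the 3 adrenal markers tested, Fdx1 and Mrap were called higher at 24 h after Dps, where 9.64% of all genes were. At 4 h after Dps 1 was called higher and 1 lower (8.33% and 6.27%), with Fdx1 at 72.8 to 75.2 CPM against 89.1 to 92.8 CPM in controls. After MnDps 1 was called higher at 4 h (22.9%) and 0 at 24 h (4.93%), and 0 were called lower at either time (22.7% and 8.39%). The part of these cells in the results on cholesterol genes was not tested, and in whole tissue fewer cells of a type and less RNA per cell cannot be told apart.

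Per kilobase of the longest transcript, the controls ranked Hmgcs1 highest at 244 ± 26.6 CPM per kb (SD, n = 3), followed by Cyp51 at 90.3 ± 5.74 and Sqle at 17.7 ± 0.464. Srebf2 stood at 13.3 ± 0.544 CPM per kb and Insig1 at 10.5 ± 3.46, and these neighbours did not differ beyond their spread. Idi1 at 8.59 ± 0.840 CPM per kb was likewise within the spread of Insig1, and Fdps at 5.98 ± 1.07 and Lss at 3.34 ± 0.255 came last. The order was the same per kilobase of merged exons, but the median transcript length put Cyp51 ahead of Hmgcs1 and moved Idi1 to the third place. The plot of CPM by library shows the same genes across the 5 groups.

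**Figure D1:**
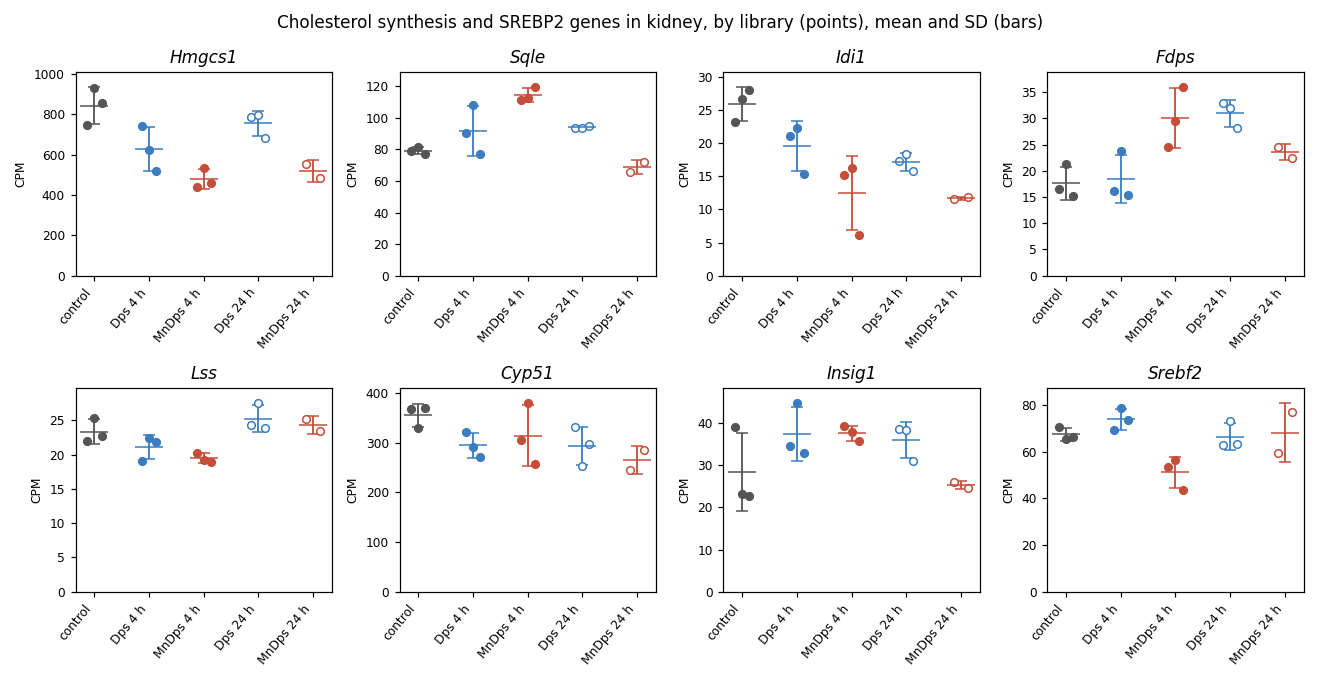
CPM of the 8 genes (vertical axes, each from 0) in every library, by group (horizontal axes). Points are libraries, filled for control and 4 h and open for 24 h, and bars are the group mean and SD. The lowest Idi1 value, 6.13 CPM, is replicate 3 of MnDps at 4 h, and all Fdps values after MnDps at 4 h and Dps at 24 h lie above the 3 controls.

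Hmgcs1, the cytosolic HMG-CoA synthase, lies at chr13:119690379-119708260 on the plus strand of GRCm38. Its 3 controls read 747, 930 and 857 CPM, and the libraries of MnDps at 4 h read 439, 534 and 461 CPM. The libraries of Dps at 4 h read 741, 623 and 521 CPM, those of Dps at 24 h 788, 797 and 683, and those of MnDps at 24 h 556 and 482. Every library of MnDps at either time, and every library of Dps at 4 h, lay below all 3 controls, while Dps at 24 h overlapped them. Against control, Hmgcs1 fell by 0.82 ± 0.12 (SE) on the log2 scale at 4 h after MnDps (adjusted p = 9.86e-05) and by 0.70 ± 0.14 at 24 h (adjusted p = 0.00539). It fell by 0.43 ± 0.12 at 4 h after Dps (adjusted p = 0.026), and at 24 h after Dps the log2 difference was -0.16, with a 95% interval from -0.42 to 0.10. Without replicate 2 of MnDps at 24 h, that group's log2 fold change for Hmgcs1 was -0.60 and no longer called (adjusted p = 0.0682). The Dps call at 4 h was lost without Dps replicate 2 (-0.41, adjusted p = 0.0847), Dps replicate 3 (-0.29, 0.15), control replicate 2 (-0.36, 0.092) or control replicate 3 (-0.42, 0.0679), and in a fit of these groups alone (-0.41, 0.059).

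Idi1, the isopentenyl diphosphate isomerase (chr13:8885501-8892451, plus strand), was among the less abundant members and fell furthest. The controls held 23.2, 26.7 and 28.1 CPM, against 15.2, 16.2 and 6.13 CPM at 4 h and 11.5 and 11.9 CPM at 24 h after MnDps. After Dps the libraries held 21.2, 22.3 and 15.3 CPM at 4 h and 17.3, 18.5 and 15.8 CPM at 24 h. All 11 treated libraries were below the 3 controls, and the library of MnDps at 4 h that stood apart overall was the lowest. Idi1 fell by 1.05 ± 0.26 on the log2 scale at 4 h after MnDps (adjusted p = 0.00584), and by 0.74 with that library left out (adjusted p = 0.000769). At 24 h after MnDps it fell by 1.15 ± 0.30 (adjusted p = 0.0281), a call lost without MnDps replicate 1 (-1.14, adjusted p = 0.156), MnDps replicate 2 (-1.18, 0.13) or control replicate 3 (-1.09, 0.0889). This Idi1 call was also lost with no count filter (-1.16, adjusted p = 0.0509), with a correction for transcript length and GC content (-1.02, 0.0566) and once the 3 deepest libraries had a term of their own (-1.03, 0.0642). The log2 differences after Dps, -0.40 at 4 h (adjusted p = 0.317) and -0.60 at 24 h (adjusted p = 0.117), did not pass. The log2 differences after Dps did pass without replicate 3 of MnDps at 4 h, which adds to the shared estimate of spread, at -0.38 (adjusted p = 0.0374) and -0.59 (adjusted p = 0.00266) for Idi1. Of the 75-base words in Idi1 transcripts, 23.6% occur in other annotated genes, mainly unnamed gene models, and how reads of several matches were counted is not given in the sources used here.

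Fdps, the farnesyl diphosphate synthase (chr3:89093588-89101959, minus strand), moved the other way from its neighbours Hmgcs1 and Idi1. The controls read 16.5, 21.2 and 15.2 CPM and Dps at 4 h read 16.2, 23.7 and 15.4 CPM. The readings were 24.6, 29.6 and 36.0 CPM for MnDps at 4 h, 32.9, 31.9 and 28.1 CPM for Dps at 24 h and 24.6 and 22.5 CPM for MnDps at 24 h. These last 3 groups lay above the highest control in every library, and Dps at 4 h overlapped the controls. Fdps rose by 0.77 ± 0.17 on the log2 scale at 4 h after MnDps (adjusted p = 0.00231) and by 0.82 ± 0.17 at 24 h after Dps (adjusted p = 0.00676). Both calls held in all 22 alternatives tried (8 other choices of scaling, filter, tool, samples or correction, and each of the 14 libraries left out), with log2 values between 0.62 and 0.90 for MnDps at 4 h and between 0.72 and 0.96 for Dps at 24 h. The differences were 0.08 at 4 h after Dps (adjusted p = 0.802) and 0.42 at 24 h after MnDps (adjusted p = 0.158). Fdps shares 23.5% of its 75-base words with other genes, so its level and that of Idi1 are less certain than those of members with few shared words. For Hmgcs1 the share was 9.79%, and its exons overlap those of the gene model Gm48342 over 557 bases.

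In the sterol arm, Sqle, the squalene epoxidase (chr15:59315077-59331192, plus strand), was higher at 4 h after MnDps and not at 24 h. Its controls were close together at 79.2, 81.4 and 77.3 CPM, and MnDps at 4 h gave 112, 113 and 119.7 CPM. At 24 h MnDps gave 65.9 and 71.9 CPM, and Dps gave 90.2, 108 and 77.1 CPM at 4 h and 93.5, 93.6 and 95.1 CPM at 24 h. The libraries of MnDps were thus all above the controls at 4 h and both below them at 24 h, and those of Dps overlapped the controls at 4 h and lay above them at 24 h. Sqle rose by 0.53 ± 0.09 on the log2 scale at 4 h after MnDps (adjusted p = 0.000392), a call kept in all 22 alternatives. The other log2 differences were 0.22 at 4 h (adjusted p = 0.139) and 0.25 at 24 h (adjusted p = 0.0758) after Dps, and -0.20 at 24 h after MnDps (adjusted p = 0.221). The 4 h difference after Dps passed without Dps replicate 3 (0.34, adjusted p = 0.0183), and the 24 h difference passed without Dps replicate 2 (0.25, 0.032) or replicate 3 of the 4 h group (0.25, 0.0395). No 75-base word of Sqle is shared with another gene.

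Lss, the lanosterol synthase (chr10:76531588-76557138, plus strand), varied little. It read 22.0, 25.3 and 22.7 CPM in controls, 20.2, 19.3 and 18.9 CPM at 4 h after MnDps and 25.2 and 23.4 CPM at 24 h. After Dps it read 19.1, 22.4 and 21.9 CPM at 4 h and 24.3, 27.5 and 23.9 CPM at 24 h. The 3 libraries of MnDps at 4 h lay just below the controls and the other groups overlapped them. Lss fell by 0.26 ± 0.09 on the log2 scale at 4 h after MnDps (adjusted p = 0.0336). A correction for each library's trend with transcript length and GC content turned this to 0.06 (adjusted p = 0.676). The Lss call was also lost in 6 other alternatives, among them those without MnDps replicate 2 (-0.27, 0.0557), MnDps replicate 3 (-0.24, 0.0821), control replicate 2 (-0.22, 0.0845) or control replicate 3 (-0.28, 0.0567). Lss overlaps 4930483K19Rik over 381 exon bases, and whether counting used the strand is not given in the sources used here.

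Cyp51, the lanosterol demethylase (chr5:4081145-4104746, minus strand), passed the test in no comparison against control. The controls read 367, 329 and 369 CPM and MnDps read 305, 379 and 257 CPM at 4 h and 245 and 284 CPM at 24 h. Dps read 321, 291 and 272 CPM at 4 h and 331, 253 and 296 CPM at 24 h. Most treated libraries were below the lowest control, but 1 library of MnDps at 4 h was above all 3 and 1 of Dps at 24 h was within their range. The log2 difference was -0.42 ± 0.14 at 24 h after MnDps (adjusted p = 0.0616), -0.18 at 4 h after MnDps (0.267), -0.27 at 4 h after Dps (0.168) and -0.28 at 24 h after Dps (0.132). Without the high library, replicate 2 of MnDps at 4 h, the difference of that group was -0.35 and passed (adjusted p = 0.0258). Without that library the 24 h difference after MnDps also passed (-0.43, adjusted p = 0.0276), as it did without replicate 3 of MnDps at 4 h (-0.43, 0.0193) or control replicate 2 (-0.49, 0.0464). Cyp51 shares 166 exon bases with Akap9, whose own log2 difference at 4 h after MnDps was -0.44 ± 0.09 (adjusted p = 0.00112).

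Srebf2, the gene of the transcription factor (chr15:82147181-82205379, plus strand), was lower at 4 h after MnDps. The controls read 70.5, 65.3 and 66.4 CPM and MnDps at 4 h read 53.4, 56.4 and 43.6 CPM. Dps read 69.5, 78.6 and 73.5 CPM at 4 h and 63.0, 73.0 and 63.2 CPM at 24 h, and MnDps at 24 h read 59.3 and 77.1 CPM. All 3 libraries of MnDps at 4 h lay below every other library of the study for this gene, and the remaining groups overlapped the controls. Srebf2 fell by 0.40 ± 0.11 on the log2 scale at 4 h after MnDps (adjusted p = 0.00697), a call kept in all 22 alternatives with values from -0.49 to -0.28. The other 3 differences from control were 0.13, -0.02 and 0.02, with adjusted p of 0.437 or more.

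Insig1, which holds the SREBP and Scap complex back (chr5:28071363-28078662, plus strand), gave no call against control, and in 3 of the 4 groups this rested on 1 control library. The controls read 39.2, 23.3 and 22.8 CPM. The treated libraries read 34.5, 44.7 and 32.9 CPM for Dps at 4 h, 39.2, 37.9 and 35.6 CPM for MnDps at 4 h, 38.7, 38.3 and 31.0 CPM for Dps at 24 h, and 26.0 and 24.6 CPM for MnDps at 24 h. Every treated library exceeded control replicates 2 and 3, and control replicate 1 was as high as most treated libraries. The log2 differences were 0.41 at 4 h after Dps (adjusted p = 0.147), 0.41 at 4 h after MnDps (0.0769), 0.35 at 24 h after Dps (0.188) and -0.16 at 24 h after MnDps (0.635). Without control replicate 1 the Insig1 differences were 0.70 (adjusted p = 0.00192), 0.69 (0.000907), 0.64 (0.00954) and 0.13 in the same order, of which the first 3 passed.

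**Figure D2:**
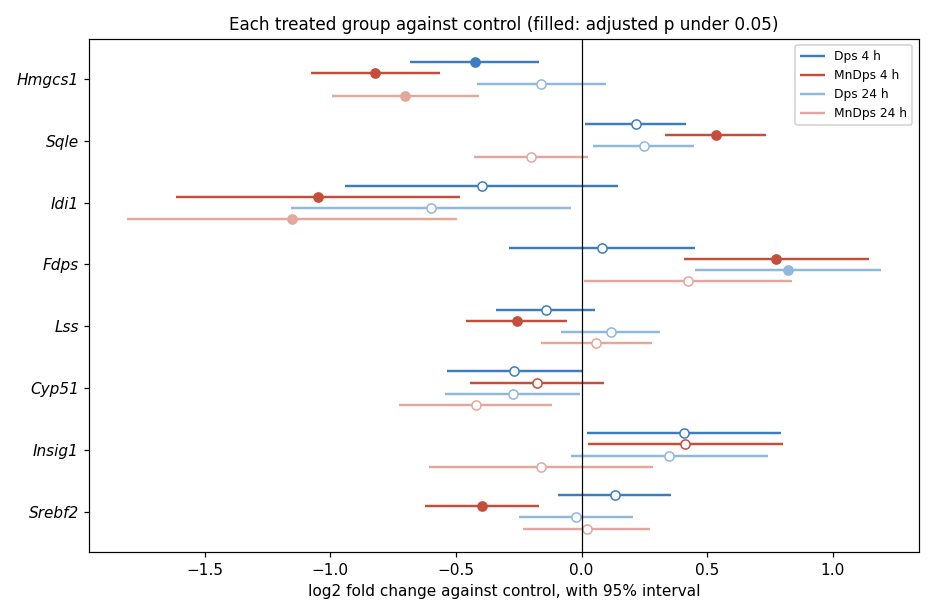
Log2 fold change of each gene (rows) in the 4 treated groups against control (horizontal axis), with 95% intervals as bars and filled points where the adjusted p was under 0.05. Hmgcs1 and Idi1 lie on the lower side and Fdps on the higher side after MnDps, and after Dps at 24 h Fdps has the only filled point.

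Read by comparison, MnDps at 4 h called 6 of the 8 members, 2 higher (Sqle, Fdps) and 4 lower (Hmgcs1, Idi1, Lss, Srebf2), against 45.6% of all genes tested (22.9% higher, 22.7% lower). Dps at 4 h called 1 of 8, Hmgcs1 lower, where 14.6% of all genes were called (8.33% higher, 6.27% lower), a share near that background. Dps at 24 h called 1 of 8, Fdps higher, against 20.1% of all genes (9.64% higher, 10.4% lower). MnDps at 24 h called 2 of 8, Hmgcs1 and Idi1 lower, against 13.3% (4.93% higher, 8.39% lower). The median log2 difference of the 8 was -0.22 at 4 h and -0.18 at 24 h after MnDps, and -0.03 and 0.05 after Dps, while the median over all genes lay between -0.02 and 0.02 in every comparison. Because rises and falls stood side by side, these medians hide changes of both signs. The 4 comparisons share the same 3 controls. Over the 14 libraries the 28 pairs of members had correlations of log2 CPM from -0.56 (Idi1 and Fdps) to 0.76 (Hmgcs1 and Idi1), with a median of 0.04, and 14 of them were negative. These correlations describe the libraries, which share depth and treatment.

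Set side by side at the same time, MnDps and Dps differed at 4 h in 4 of the 8 members, where 41.5% of all genes were called (20.8% higher after MnDps, 20.7% lower). Relative to Dps, Srebf2 was lower by a log2 difference of -0.53 ± 0.11 (adjusted p = 0.00104) and Hmgcs1 by -0.39 ± 0.12 (adjusted p = 0.0158), and Fdps was higher by 0.69 ± 0.17 (adjusted p = 0.00446) and Sqle by 0.32 ± 0.09 (adjusted p = 0.013). Libraries of the 2 proteins did not overlap for Srebf2, Fdps and Sqle, and for Hmgcs1 the highest of MnDps, 534 CPM, passed the lowest of Dps, 521 CPM. The share of all genes separated in this way at 4 h was not counted, so this separation has no background either. The Srebf2 and Fdps calls held in all 22 alternatives. The Hmgcs1 call was lost without MnDps replicate 1 (-0.34, adjusted p = 0.0566) or Dps replicate 1 (-0.27, 0.0954), with the length and GC correction (-0.31, 0.087) and once the 3 deep libraries had a term of their own (-0.25, 0.227). The Sqle call was lost in 4 of the 22, among them those without MnDps replicate 3 (0.26, 0.0594), Dps replicate 1 (0.29, 0.0551) or Dps replicate 3 (0.20, 0.0897). The Idi1 difference was -0.65 (adjusted p = 0.0605), and it passed without MnDps replicate 1 (-0.81, 0.0468), MnDps replicate 2 (-0.89, 0.0219) or Dps replicate 3 (-0.80, 0.0368). For Lss, Cyp51 and Insig1 the 95% intervals ran from -0.31 to 0.08, from -0.18 to 0.36 and from -0.38 to 0.39.

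At 24 h, with 2 libraries of MnDps, 0 of the 8 members were called by edgeR and 0.815% of all genes were (0.148% higher, 0.666% lower). DESeq2's Wald test and limma voom each called 2 members, where they called 558 and 716 of the 14854 genes tested. Fitted on these 2 groups alone, edgeR called 5 members and 727 of 14328 genes. At an unadjusted p under 0.05 there were 3 members in the main fit, and the share of all genes at that threshold was not counted. Both MnDps libraries lay below all 3 of Dps for Hmgcs1 (-0.54, adjusted p = 0.0685), Sqle (-0.45, 0.0602), Idi1 (-0.55, 0.395), Fdps (-0.40, 0.325) and Insig1 (-0.51, 0.24), each given as a log2 difference. The share of all genes separated in this way was not counted, so this separation has no background to be judged against. Over the 22 alternatives the difference passed in 8 for Sqle, 4 for Hmgcs1, 2 for Idi1 and 1 each for Fdps and Insig1. Among these, the Sqle difference passed without replicate 3 of MnDps at 4 h (-0.47, adjusted p = 0.0215) or without replicate 2 (-0.45, 0.0355) or 3 (-0.45, 0.0402) of Dps at 4 h. Those of Hmgcs1 (-0.56, 0.0436) and Idi1 (-0.57, 0.0374) passed without replicate 3 of MnDps at 4 h. The libraries of Lss, Cyp51 and Srebf2 overlapped.

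**Figure D3:**
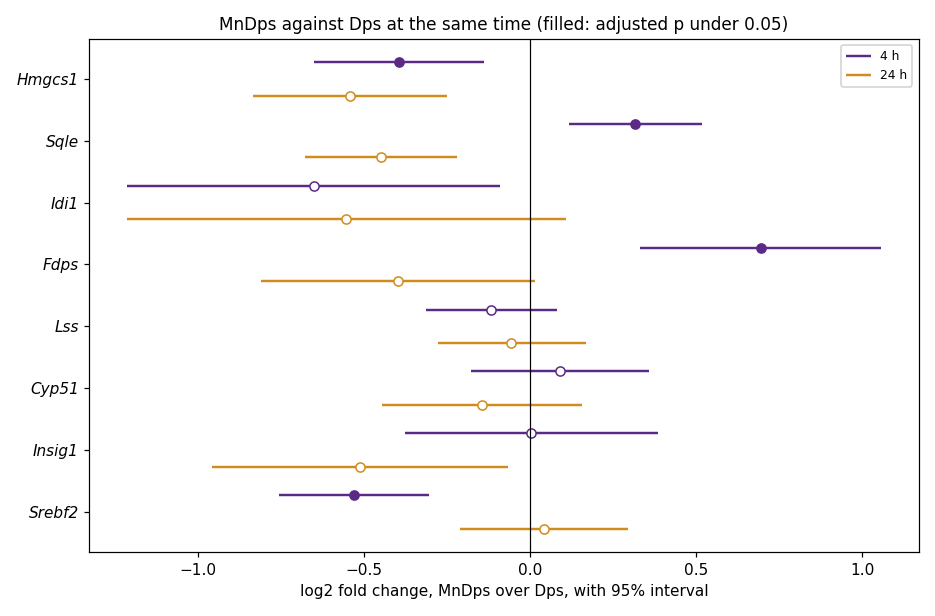
Log2 difference of MnDps from Dps (horizontal axis) at 4 h and at 24 h for each gene (rows), with 95% intervals as bars and filled points where the adjusted p was under 0.05. At 4 h Fdps and Sqle are higher and Srebf2 and Hmgcs1 lower after MnDps, and at 24 h no point is filled.

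Between 4 h and 24 h after MnDps, 3 of the 8 members changed, against 21.8% of all genes (10.1% higher, 11.7% lower). Sqle fell by 0.73 ± 0.11 on the log2 scale (adjusted p = 0.000212, held in all 22 alternatives), and Srebf2 rose by 0.42 ± 0.12 (0.0205) and Lss by 0.32 ± 0.11 (0.0399). The Srebf2 change was lost in 4 of the 22 alternatives. Among these were the fits without replicate 3 of MnDps at 4 h (0.31, adjusted p = 0.0673), without replicate 2 of MnDps at 24 h (0.21, 0.365) and with the length and GC correction (0.21, 0.196). The Lss change was lost in 8 of the 22 alternatives, with values down to 0.11 under the length and GC correction. The Lss change was lost without MnDps replicates 2 or 3 at 4 h (0.32 and 0.29), replicates 1 or 2 at 24 h (0.26 and 0.37), or Dps replicate 3 at 4 h (0.31). Insig1 differed by -0.57 (adjusted p = 0.0622) and passed without Dps replicate 2 at 4 h (-0.58, 0.0461), control replicate 1 (-0.57, 0.00625) or control replicate 3 (-0.57, 0.045).

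After Dps, 2 of the 8 members rose from 4 h to 24 h, where 44.6% of all genes changed (22.0% higher, 22.6% lower): Fdps by 0.74 ± 0.17 on the log2 scale (adjusted p = 0.00284, held in all 22 alternatives) and Lss by 0.26 ± 0.09 (0.0331). The Lss rise was lost in 5 of the 22 alternatives. Among these were the fits without Dps replicate 1 (0.17, adjusted p = 0.194) or 3 (0.27, 0.0626) of the 4 h group, without replicate 2 of the 24 h group (0.19, 0.152) and with a term for deep libraries (0.21, 0.197). Hmgcs1 differed by 0.27 (adjusted p = 0.0846), which passed without Dps replicate 1 at 4 h (0.39, 0.0218). The change over time differed between the proteins for 3 of the 8 members, tested as the interaction of protein and time, by which 29.4% of all genes were called (13.7% higher, 15.7% lower). The interaction was -0.77 ± 0.14 for Sqle (adjusted p = 0.00128), -1.09 ± 0.26 for Fdps (0.0058) and 0.57 ± 0.16 for Srebf2 (0.0138). The Sqle and Fdps interactions held in all 22 alternatives, and that of Srebf2 was lost without replicate 2 of MnDps at 24 h (0.37, adjusted p = 0.143) and with the length and GC correction (0.22, 0.362).

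The remaining genes of the pathway were taken from 2 lists, a mevalonate arm of 9 genes and a sterol arm of 13, of which 21 were tested and 6 are members. Against control, Dps at 4 h called 0 higher and 1 lower of the 21 (8.33% and 6.27% of all genes), and MnDps at 4 h called 4 higher and 8 lower (22.9% and 22.7%). Dps at 24 h called 8 higher and 0 lower (9.64% and 10.4%), and MnDps at 24 h called 0 higher and 3 lower (4.93% and 8.39%). With the members left out, the counts over 15 genes were 0 and 0, 2 and 5, 7 and 0, and 0 and 1 in the same order, with medians of -0.13, -0.03, 0.28 and 0.04 on the log2 scale.

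At 24 h after Dps, when 9.64% of all genes rose, the pathway genes that rose lay in both arms. They were 5 of the 8 tested in the mevalonate arm and 3 of the 13 tested in the sterol arm. Beside Fdps they included Pmvk (0.55 ± 0.13, adjusted p = 0.00955) and Mvk (0.54 ± 0.14, 0.0168), which phosphorylate mevalonate in steps, Fdft1 (0.47 ± 0.13, 0.0191), the squalene synthase, and Msmo1 (0.56 ± 0.15, 0.0205) and Ebp (0.28 ± 0.08, 0.026), which act on the ring and its double bond. The 8 calls higher rested on few libraries, with 1 call left without control replicate 3 or without Dps replicate 2 of that group, 2 without Dps replicate 1, 5 without control replicate 1 and 6 without control replicate 2. Rises over all genes, 1432 in the main fit, were 398, 495, 780, 820 and 1602 in the same order. With the length and GC correction the 8 calls became 5, and the rises over all genes became 692. From 4 h to 24 h after Dps, 11 of the 21 rose and 0 fell, where 22.0% of all genes rose, led in the mevalonate arm by Pmvk (0.87 ± 0.13, adjusted p = 8.47e-05) and Mvk (0.78 ± 0.14, 0.000442). The interaction called 0 higher and 6 lower of the 21, against 15.7% of all genes lower, with Msmo1 at -1.09 ± 0.23 (adjusted p = 0.0031) and Pmvk at -1.04 ± 0.19 (0.00128) beside Fdps.

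At 4 h after MnDps the pathway moved both ways, as its members did. Beside Fdps and Sqle, the genes that rose were Pmvk (0.51 ± 0.13, adjusted p = 0.00446) and Ebp (0.46 ± 0.08, 0.000418), and with the length and GC correction these values were 0.04 (0.753) and 0.13 (0.138). Lower were Lbr (-0.61 ± 0.10, adjusted p = 0.000207), which doubles as a sterol reductase and a nuclear lamina receptor, Sc5d (-0.57 ± 0.17, 0.0124), a sterol desaturase, and Nsdhl (-0.54 ± 0.11, 0.000861), which helps to remove methyl groups. The Lbr and Nsdhl calls held in all alternatives, and Sc5d was lost without replicate 3 of MnDps at 4 h and with the length and GC correction.

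**Figure D4:**
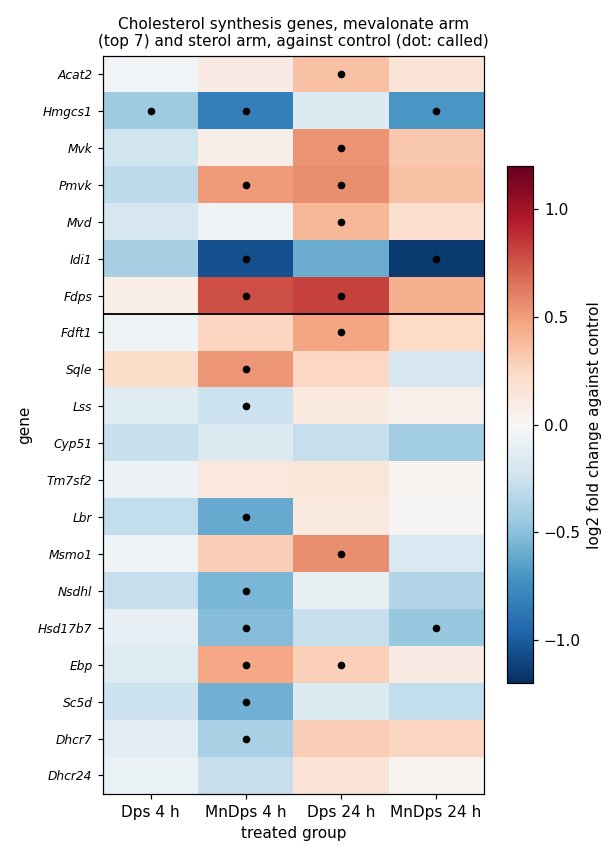
Log2 fold change against control (colour scale) of 20 of the 21 tested genes of the mevalonate arm (above the line) and sterol arm (below it), in rows, for the 4 treated groups, in columns. Dots mark calls at an adjusted p under 0.05: all 8 dots after Dps at 24 h are on genes that rose, and the dots after MnDps at 4 h are 4 on genes that rose and 8 on genes that fell.

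Among 13 genes that control SREBP processing and sterol sensing, members included, MnDps at 4 h called 0 higher and 8 lower, where 22.9% and 22.7% of all genes were called. Beside Srebf2, the genes that fell included Erlin2 (-0.60 ± 0.10, adjusted p = 0.000209), which encodes an endoplasmic reticulum scaffold, and Mbtps2 (-0.57 ± 0.15, 0.0055), a protease that cuts SREBPs. The median of these 13 genes was -0.25 on the log2 scale. Dps at 4 h called 0 of the 13 (14.6% of all genes), Dps at 24 h 1 higher and 1 lower (9.64% and 10.4%), and MnDps at 24 h 0 higher and 2 lower (4.93% and 8.39%). Srebf1, which encodes the related factors of fatty acid synthesis, was the gene called higher at 24 h after Dps (0.51 ± 0.15, adjusted p = 0.0263). Without Dps replicate 2 of that group the Srebf1 difference was 0.30 (adjusted p = 0.15), and it was also lost without control replicate 1 (0.51, 0.0635) or 3 (0.44, 0.123). Its other log2 differences were 0.20, 0.21 and 0.26.

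Ch25h makes 25-hydroxycholesterol, an oxysterol known to hold SREBPs back, and it rose at 4 h after either protein. The controls read 1.92, 1.55 and 0.996 CPM, Dps at 4 h 3.71, 4.44 and 4.66 CPM and MnDps at 4 h 4.39, 5.01 and 6.85 CPM. All 6 libraries lay above the controls, and the rise was 1.57 ± 0.24 on the log2 scale after Dps (adjusted p = 0.000187) and 1.92 ± 0.24 after MnDps (1.66e-05), called in every alternative. At 24 h the differences were -0.56 after Dps (adjusted p = 0.169) and -0.09 after MnDps (0.868). Abca1, an exporter of cholesterol, differed by 0.85 at 4 h after Dps (adjusted p = 0.101) and by 0.00, -0.44 and -0.29 at 4 h after MnDps and at 24 h after Dps and MnDps. The Abca1 difference at 4 h after Dps passed without replicate 3 of MnDps at 4 h (0.87, adjusted p = 0.015). Of 12 tested genes of sterol uptake and transport, MnDps at 4 h called 4 higher and 7 lower (22.9% and 22.7% of all genes), with Vldlr (-0.75 ± 0.09, adjusted p = 1.18e-05) and Lrp2, the gene of megalin (-0.49 ± 0.08, 0.000182), among the falls. The Lrp2 call was lost with the length and GC correction. Of 16 tested fatty acid synthesis genes, MnDps at 4 h called 2 higher and 2 lower, each Dps group called 1 higher and 0 lower, and MnDps at 24 h called 0, against 45.6% of all genes at 4 h after MnDps, 14.6% and 20.1% after Dps and 13.3% at 24 h after MnDps.

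A mean of the 8 members' standardised log2 CPM was compared with the other 14846 genes tested over the 14 libraries. The most similar were Vbp1 (r = 0.867), Yipf5 (0.866), Itga7 (0.844), Riok3 (0.843), Ap3s1 (0.841), Dleu7 (0.834), Slc22a28 (0.828), Khdrbs3 (0.823), Sh3bgrl (0.819) and Sar1b (0.818). None of the 50 highest belonged to the mevalonate or sterol arm. The members themselves did not move as 1 block, and the libraries share treatment and depth, so these values are a description.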

How the data were processed

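The deposited table holds raw counts per gene symbol, 1 column per library; the authors aligned reads with STAR and counted them with featureCounts on mm10, per the submitters' processing notes. For the versions, the annotation, the strand setting and the handling of multi-mapping reads, nothing is stated: they were not given in the sources used here. Genes were filtered with edgeR's filterByExpr by group (14854 kept, 9567 removed) and scaled by the trimmed mean of M-values. A quasi-likelihood fit (edgeR 4.0.16, R 4.3.3) of 5 group means over all 14 libraries left 9 residual degrees of freedom, with a biological coefficient of variation of 10.7%. Adjustment of p-values (Benjamini-Hochberg) ran over all genes of a comparison, and the SE is the absolute log2 fold change divided by the square root of F. Replicate numbers follow accession order. The fit was tested on simulated data. The members, gene lists and tests were chosen with earlier results of these data known. Named genes are the members, up to 3 called genes of each direction and list with the largest change whose higher group averaged 1 CPM or more, and Srebf1, Ch25h and Abca1, and some genes that this rule names are not reported here. Akap9 and 4930483K19Rik, outside that rule, are named for their overlap with Cyp51 and Lss. Alternatives were DESeq2 (1.42.0) size factors and its Wald test, no filter, a filter of at least 1 CPM in 3 libraries, limma voom (3.58.1) with library weights, only the groups compared, a spline correction for transcript length and GC content, a term for the 3 libraries above 30000000 counts, and each library left out.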

Additional observations from a re-analysis of the deposited data

Results flagged for a closer look

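Of the 8 members, 3 changed differently over time after MnDps than after Dps, by the test of the interaction in edgeR's fit. That test called 29.4% of all genes, so 3 of 8 is near the share over all genes. The change of Sqle from 4 h to 24 h was lower after MnDps by -0.77 ± 0.14 on the log2 scale (adjusted p = 0.00128), with 112 to 119.7 CPM at 4 h and 65.9 and 71.9 CPM at 24 h after MnDps and overlapping values after Dps. That of Fdps was lower by -1.09 ± 0.26 (adjusted p = 0.0058), with 15.4 to 23.7 CPM at 4 h and 28.1 to 32.9 CPM at 24 h after Dps, and 24.6 to 36.0 CPM at 4 h and 22.5 and 24.6 CPM at 24 h after MnDps. That of Srebf2 was higher by 0.57 ± 0.16 (adjusted p = 0.0138), from 43.6 to 56.4 CPM at 4 h to 59.3 and 77.1 CPM at 24 h after MnDps. The Srebf2 value was 0.22 with the length and GC correction (adjusted p = 0.362) and 0.37 without replicate 2 of MnDps at 24 h (adjusted p = 0.143), neither of them called.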

How the results depend on the processing

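No paired analysis was possible because the titles number the libraries without repeating a number between groups. All alternatives were planned together with the tests. Among alternatives other than leaving out a library, the count of members called moved by more than 1.5 times as follows. For Dps at 4 h against control it was 1 and became 0 with only the groups compared and 2 with the length and GC correction. For Dps at 24 h it was 1 and became 2 with DESeq2's Wald test and 3 with limma voom, with only the groups compared and with the length and GC correction. For MnDps at 24 h it was 2 and became 1 with no count filter, with the correction and with a depth term. For MnDps against Dps at 24 h it was 0 and became 1 with no count filter or with the correction, 2 with DESeq2 or voom and 5 with only the groups compared. From 4 h to 24 h it went from 2 to 1 after Dps with no count filter, and from 3 to 1 after MnDps with the correction. Smaller moves gave 5 to 6 for MnDps at 4 h against control, 3 to 5 for MnDps against Dps at 4 h, 2 to 4 for the interaction, up to 3 from 4 h to 24 h after Dps and 2 to 4 after MnDps.

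With the length and GC correction, counts over all genes went from 2168 to 3727 for Dps at 4 h, 2979 to 1487 for Dps at 24 h, 1978 to 1162 for MnDps at 24 h, 6158 to 3694 for MnDps against Dps at 4 h and 4368 to 2356 for the interaction. With the depth term they were 1637 for Dps at 24 h, 1033 for MnDps at 24 h, 3558 for MnDps against Dps at 4 h, 68 (from 121) for the same at 24 h, and 4225 (from 6626) from 4 h to 24 h after Dps. MnDps against Dps at 24 h gave 558 genes with DESeq2, 716 with voom and 727 with only the groups compared, which gave 1878 (from 3242) between the times after MnDps.

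Leaving out 1 library at a time, members called ranged from 0 to 2 and genes called from 1435 (without Dps replicate 2) to 2666 for Dps at 4 h against control. The ranges were 5 to 7 and 4956 to 6814 for MnDps at 4 h. For Dps at 24 h they were 1 to 2 and 843 (without control replicate 3; 1194 and 1776 without Dps replicates 2 and 1) to 3861. For MnDps at 24 h they were 0 to 3 and 300 (without MnDps replicate 1; 609 without replicate 2, 779 and 1221 without control replicates 3 and 1) to 2821. MnDps against Dps ranged over 2 to 5 and 4670 to 6264 at 4 h and 0 to 3 and 5 (without MnDps replicate 1) to 598 (without replicate 3 of MnDps at 4 h) at 24 h. Over time the ranges were 1 to 2 and 5203 to 7098 after Dps, and 1 to 4 and 1336 (without replicate 2 of MnDps at 24 h; 1837 without replicate 1) to 3373 after MnDps. The interaction ranged over 2 to 4 and 2724 (without replicate 2 of MnDps at 24 h) to 4598.

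The length and GC correction reversed 9 called log2 values: Lss (0.062) and Coq2 (-0.025) for MnDps at 4 h, Lrp2 (0.048), Vldlr (0.045) and Coq2 (-0.037) for Dps at 24 h, and Tmem97 (-0.030), Vldlr (0.030), Cubn (0.140) and Acacb (0.120) for MnDps against Dps at 4 h. The cause of these changes was not tested. The 2 libraries of MnDps at 24 h limit the precision of every comparison with that group.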
